A study of Rattus norvegicus with 56 samples.

Results

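The miR-7 family in this table is a pair of mature miRNAs, rno-miR-7a-5p and rno-miR-7b, taken by name from the 367 miRNAs counted in rat hippocampus. Both members had reads in all 56 libraries. The study sequenced small RNA from the hippocampus of 28 rats with traumatic brain injury (TBI) and 28 sham rats, 1 library per rat. TBI was made by fluid percussion, a model in which a pulse of fluid strikes the exposed brain, and the controls had sham surgery. Each treatment had 4 rats at each of 7 intervals, namely 24 h, 2 w, 1 m, 2 m, 3 m, 6 m and 1 y after surgery. Strain, sex and age at surgery are not given in the sources used here, and the tissue is whole hippocampus, so fewer cells of a type and less miRNA per cell cannot be told apart. The question was whether the level of the family in hippocampus differed between TBI and sham rats at any interval, and how it varied over the year.

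miR-7 is among the most conserved animal miRNAs and is enriched in neurons and in neuroendocrine cells such as those of the pituitary and the pancreatic islet. In the brain it sits in a circuit of noncoding RNAs: the circular RNA Cdr1as carries many miR-7 sites and stabilizes miR-7, the long noncoding RNA Cyrano directs its decay, and miR-671 directs cleavage of Cdr1as. Its known targets include the mRNA of Egfr, which encodes a growth factor receptor.

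The mature sequences are shown because the members share a seed and are told apart by a single base. They come from RefSeq (GRCr8), written 5′ to 3′ with the seed, bases 2 to 8, in capitals.
rno-miR-7a-5p: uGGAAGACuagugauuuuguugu
rno-miR-7b: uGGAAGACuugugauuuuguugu
Both are 23 bases long and 22 of these are identical. The difference is A10U, counted from 1 at the 5′ end with the miR-7a-5p base given first, and it lies outside the seed. Of 693 mature rat miRNA names in RefSeq, these 2 alone carry the seed, and the nearest other mature miRNA differs from miR-7a-5p at 7 or more positions. Of the 367 names in the count table, 331 matched a RefSeq name. How reads with a sequencing error were shared between the members is not given in the sources used here, so the split of reads between them is uncertain.

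The members come from 3 hairpins, shown because miR-7a-5p has more than 1 gene. Capitals mark the mature arms that RefSeq annotates, and coordinates are of GRCr8, plus strand.
Mir7-1: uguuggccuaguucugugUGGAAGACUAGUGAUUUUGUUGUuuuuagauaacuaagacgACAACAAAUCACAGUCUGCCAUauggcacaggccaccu
Mir8: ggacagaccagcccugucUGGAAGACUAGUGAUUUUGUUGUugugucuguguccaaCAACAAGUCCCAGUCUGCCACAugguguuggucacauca
Mir9: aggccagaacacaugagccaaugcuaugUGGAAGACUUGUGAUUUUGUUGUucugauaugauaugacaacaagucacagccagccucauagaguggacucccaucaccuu
Mir7-1 (also named Mir7a-1) spans chr17:6278692-6278788, within the interval of Hnrnpk, which encodes an RNA-binding protein. Mir8 (also named Mir7a-2) spans chr1:142215800-142215894, within the interval of a long noncoding RNA gene beside Aen, which encodes an exonuclease. Mir9 (also named Mir7b) spans chr9:1167436-1167545, within the interval of the pseudogene Rpl35l3. The 5′ arms of Mir7-1 and Mir8 give the same mature miR-7a-5p, so its counts cannot be divided between these genes.

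Library totals ran from 2083604 to 12468979 counts in 55 libraries, and the library of TBI rat 1 at 2 m held 69628. That library gave 1472 reads of miR-7a-5p, 2.11% of its counts (95% exact binomial interval 2.01 to 2.22), and 164 reads of miR-7b, 0.236% (0.201 to 0.274). These are the lowest shares of both members, and the intervals cover counting error only. In the other 55 libraries the smallest counts were 65623 and 7761 reads, so counting error was small beside the spread between rats. In none of 84 pairs of libraries from the same group did counts match within sampling noise (chi-square over its degrees of freedom 14.7 or more). Of 9 neuron-enriched miRNAs listed, 8 were matched and all 8 had reads in every library, with a summed level of 152800 to 360700 CPM (counts scaled to a library of 1000000, with TMM scaling over all 56 libraries).

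Among the 367 names in the count table, miR-7a-5p was one of the most abundant. It took on average 4.77% of the counts of a library (range 2.11 to 7.03), rank 4 of 367 miRNAs. miR-7b took 0.496% (range 0.236 to 0.772), rank 29. These ranks do not speak for miRNAs or arms outside the table. The level of miR-7a-5p ran from 16897 to 74888 CPM with a median of 48474, and that of miR-7b from 1882.5 to 8226.3 CPM with a median of 4951.7. Rats of a group differed with an SD of 0.32 for miR-7a-5p and 0.28 for miR-7b on the log2 scale, and the median of 244 miRNAs was 0.28. Both members thus varied between like-treated rats about as much as the median of these miRNAs, at ranks 103 and 130 of 244 from the highest SD. That median takes in miRNAs with few reads and was not matched for abundance. The SD was taken over the 55 libraries of at least 1000000 counts, with group means over all 56.

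**Figure D1:**
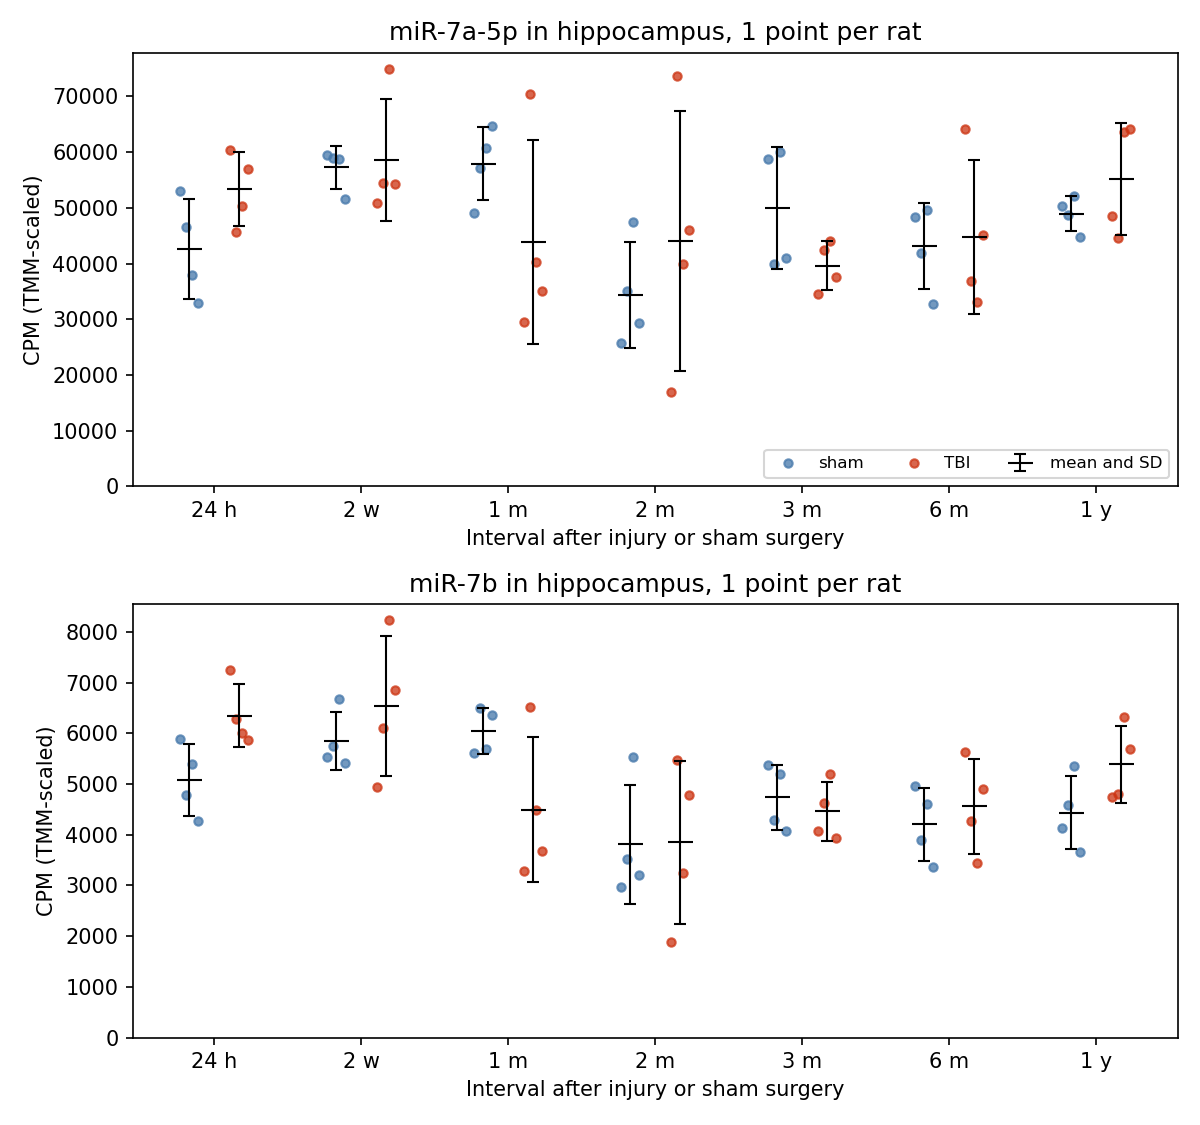
Level of miR-7a-5p (top) and miR-7b (bottom) in CPM for each rat by interval, sham in blue and TBI in red, with the group mean and SD (4 rats). TBI and sham rats overlapped at all 7 intervals for both members, and 3 of 4 TBI rats at 1 m lay below every sham rat.

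The levels by rat show how far the treatments overlapped. The group means of miR-7a-5p ran from 34377 ± 9496 CPM (SD, n = 4) in sham rats at 2 m to 58609 ± 10970 in TBI rats at 2 w. Those of miR-7b ran from 3810 ± 1172 CPM in sham rats at 2 m to 6535.9 ± 1374 in TBI rats at 2 w. The same groups thus stood at either end of both orders. The 14 groups were also ranked by mean and neighbours in the order were compared. Neighbours are the closest groups by construction, and 1 pair alone could not pass after adjustment over the 13 tests. These tests therefore cannot show how far the groups differ. The lowest p of the 13 neighbour tests was 0.343 for each member (two-sided exact permutation test, adjusted p from 0.971 to 1).

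At 24 h, both members were higher on average after TBI, with overlap between the groups. miR-7a-5p stood at 53026, 46611, 37888 and 32836 CPM in sham rats 1 to 4 and at 60400.1, 45641, 50298 and 56924 CPM in TBI rats 1 to 4. Sham rats 3 and 4 were the low ones, and 2 of 4 TBI rats exceeded every sham rat. miR-7b stood at 5895, 4782, 5393 and 4262 CPM in sham rats and at 7252, 6279, 5997 and 5864 CPM in TBI rats. Here 3 of 4 TBI rats exceeded every sham rat, and TBI rat 4 lay just below sham rat 1. The sham rats also differed from each other in marker miRNAs, the low ones and the others alike. Sham rat 4 had 2387 CPM of leukocyte and microglia miRNAs against 1140 to 1295 in the other sham rats and the lowest neuron sum of its group, 208600 CPM. By median count the leukocyte and microglia sum is mostly miR-150-5p (5004, against 809.5 for miR-142-5p and 3 for miR-223-5p). Sham rat 3 had the highest choroid plexus, oligodendrocyte and sensory cluster sums of its group, at 5110, 3315 and 118.6 CPM. Sham rat 2 had the highest red blood cell and vessel wall sums, at 191.2 and 1303 CPM. Sham rat 1 had the highest neuron sum and the lowest choroid plexus sum, at 287300 and 1435 CPM. The TBI rats differed in these sums too. TBI rat 4 had the highest choroid plexus and sensory cluster sums of its group, at 4333 and 168.3 CPM. TBI rat 2 had the highest leukocyte and microglia sum and the lowest neuron sum of its group, at 1552 and 209300 CPM. The part of these differences in the miR-7 values was not tested. The fold change was 1.26 for miR-7a-5p (95% interval 1.01 to 1.58) and 1.25 for miR-7b (1.03 to 1.52). In edgeR the unadjusted p was 0.0459 and 0.0285, and the adjusted p over 233 miRNAs was 0.891 and 0.603, so neither passed the threshold of 0.05. By the two-sided exact permutation test of log2 CPM, whose smallest possible p is 0.0286, p was 0.143 and 0.0571. Of all miRNAs tested at 24 h, 1.72% passed the adjusted threshold, 5.15% had an unadjusted p under 0.05 and 4.31% had groups that did not overlap.

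At 2 w, the members differed little between treatments. miR-7a-5p stood at 59543, 59016, 58841 and 51555 CPM in sham rats and at 50894, 54407, 74888 and 54249 CPM in TBI rats. TBI rat 3 had the highest level of miR-7a-5p among all 56 rats, and the other 3 TBI rats lay below 3 of the 4 sham rats. miR-7b stood at 5525, 5749, 6674 and 5414 CPM in sham rats and at 4948, 6113, 8226 and 6856 CPM in TBI rats, with TBI rat 3 again the highest of all rats. The log2 fold change was 0.05 (SE 0.124) for miR-7a-5p and 0.18 (SE 0.147) for miR-7b, with adjusted p of 0.95 and 0.743 in edgeR. Without TBI rat 3 the log2 fold change of miR-7a-5p was −0.10. At this interval 0% of miRNAs passed the adjusted threshold and 5.29% had groups that did not overlap.

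At 1 m, 3 of 4 TBI rats had less of both members than any sham rat, and the remaining TBI rat had more miR-7a-5p and miR-7b than any sham rat. miR-7a-5p stood at 49128, 57213, 60774 and 64663 CPM in sham rats and at 29497, 70485, 40321 and 35056 CPM in TBI rats. miR-7b stood at 5611, 6496, 5691 and 6366 CPM in sham rats and at 3293, 6509, 4497 and 3678 CPM in TBI rats. The high animal was TBI rat 2 for both members. With all 8 libraries the log2 fold change was −0.33 (95% interval −0.88 to 0.21) for miR-7a-5p and −0.36 (−0.83 to 0.11) for miR-7b, with adjusted p of 0.54 and 0.407 in edgeR. The exact permutation p was 0.171 and 0.143. At 1 m, 0.417% of the miRNAs tested passed the adjusted threshold and 10.1% had groups that did not overlap.

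TBI rat 2 decided the call at 1 m. Without its library miR-7a-5p fell by 0.73 on the log2 scale (SE 0.147, 0.604-fold, adjusted p 0.0201) and miR-7b fell by 0.66 (SE 0.144, 0.633-fold, adjusted p 0.0205), and both passed the threshold in edgeR. Each of the 8 rats was left out in turn, and this one was singled out after the values were seen. With any other rat left out, neither member passed. In the set without TBI rat 2, 2.86% of 245 miRNAs passed the threshold and 1.63%, 4 miRNAs, passed as lower, 2 of which were the miR-7 members. The rat left out was the highest of the 8 for both members, so leaving it out by itself lowers the TBI mean. The members also varied together from rat to rat, so they are not 2 separate calls. TBI rat 2 also stood apart in marker miRNAs of other cell types. Its summed choroid plexus miRNAs (miR-204-5p, miR-211-5p and miR-448-5p) reached 4421 CPM against 1512 to 1984 in the other TBI rats, within the 1379 to 4435 of sham rats. Its vessel wall miRNAs summed to 697.3 CPM against 909.2 to 1413 in the other TBI rats and 1027 to 1671 in sham rats. Its leukocyte and microglia miRNAs, mostly miR-150-5p by median count, summed to 843.2 CPM, against 940.9 to 1236 in the other TBI rats and 814 to 935.3 in sham rats. Neuron-enriched miRNAs summed to 221700 to 285200 CPM in sham rats, against 152800 to 234200 after TBI. That sum is mostly miR-9a-5p and miR-218a-5p (median counts 982085.5 and 213142.5), whose log2 fold changes were −0.29 and −0.48. By miRNA the list was split, with 5 of 8 values above 0, a median log2 fold change of 0.14 and 0 of 8 past the adjusted threshold in edgeR. Red blood cell miRNAs summed to 66.87 CPM in TBI rat 2, within the 65.04 to 101 of the other TBI rats, and to 47.05 to 340.1 in sham rats. With all 8 libraries the median log2 fold change of the red blood cell pair was −1.36, against 0.02 over all miRNAs. The 2 oligodendrocyte miRNAs went opposite ways. The log2 fold change of miR-219a-5p was −0.96 (p 0.0024, adjusted p 0.144 in edgeR). That of miR-338-5p, with more reads by median count (10420.5 against 1237.5), was 0.22 (p 0.301, adjusted p 0.628 in edgeR). Their sum was 1928 to 2483 CPM in TBI rats, within the 1641 to 2855 of sham rats. The part of these differences in the miR-7 values was not tested.

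At 2 m, the levels spread most widely. miR-7a-5p stood at 25747, 35151, 47376 and 29234 CPM in sham rats and at 16897, 73626, 39893 and 46041 CPM in TBI rats. miR-7b stood at 2976, 3516, 5536 and 3212 CPM in sham rats and at 1882.5, 5479, 3250 and 4791 CPM in TBI rats. TBI rat 1, the library of 69628 counts, was the lowest of all rats for both members, and TBI rat 2 had the second highest level of miR-7a-5p of all rats. The log2 fold change was 0.34 (SE 0.342) for miR-7a-5p and 0.01 (SE 0.295) for miR-7b, with adjusted p of 0.835 and 0.993 in edgeR. Without TBI rat 1 these were 0.59 (95% interval 0.06 to 1.12, adjusted p 0.549) and 0.21 (−0.32 to 0.74, adjusted p 0.802). Without TBI rat 2 they were 0.01 (−0.65 to 0.67, adjusted p 0.989) and −0.17 (−0.80 to 0.46, adjusted p 0.887). TBI rat 2 also had the highest sum of neuron-enriched miRNAs of all libraries, 360700 CPM, and its part in these values was not tested. The direction of miR-7b at 2 m changed with the scaling, being −0.14 when libraries were scaled by their total count alone. At this interval 0% of miRNAs passed the adjusted threshold and 5.08% had groups that did not overlap.

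At 3 m, miR-7a-5p was lower on average after TBI and miR-7b was nearly level. miR-7a-5p stood at 58801, 39857, 60072 and 41042 CPM in sham rats and at 34454, 42448, 44042 and 37591 CPM in TBI rats. The sham rats fell into a high and a low pair, and all 4 TBI rats lay near the low pair. miR-7b stood at 5375.5, 4289.97, 5192 and 4078 CPM in sham rats and at 4075, 4622, 5198 and 3937 CPM in TBI rats. The fold change was 0.819 (95% interval 0.657 to 1.02, adjusted p 0.533) for miR-7a-5p and 0.969 (0.82 to 1.14, adjusted p 0.907) for miR-7b in edgeR. Choroid plexus miRNAs summed at this interval to 2591 to 20830 CPM in the sham rats, against 3284 to 4138 CPM after TBI, and the part of that spread in these values was not tested. Of the miRNAs tested 0% passed the adjusted threshold and 4.09% had groups that did not overlap.

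At 6 m and 1 y the groups again overlapped. At 6 m, miR-7a-5p stood at 48437, 41889, 49551 and 32642 CPM in sham rats and at 64198, 36807, 33044 and 45077 CPM in TBI rats. miR-7b stood at 4955, 3896, 4607 and 3357 CPM in sham rats and at 5637, 4269, 3436 and 4894 CPM in TBI rats. TBI rat 1 was the highest for both members, and without it the log2 fold changes of 0.06 and 0.12 became −0.20 and −0.02. The adjusted p with all rats was 0.971 and 0.961 in edgeR. At 1 y, miR-7a-5p stood at 50257, 48715, 52088 and 44829 CPM in sham rats and at 48511, 44526, 63528 and 64083 CPM in TBI rats. miR-7b stood at 4142, 4585, 5364 and 3655 CPM in sham rats and at 4752, 4798, 6322 and 5687 CPM in TBI rats. TBI rats 3 and 4 exceeded every sham rat for both members. The fold change at 1 y was 1.12 (95% interval 0.917 to 1.37, adjusted p 0.535) for miR-7a-5p and 1.21 (0.976 to 1.49, adjusted p 0.431) for miR-7b in edgeR. At 6 m 0% of miRNAs passed the adjusted threshold and 1.34% had groups that did not overlap, and at 1 y these shares were 0% and 5.33%.

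**Figure D2:**
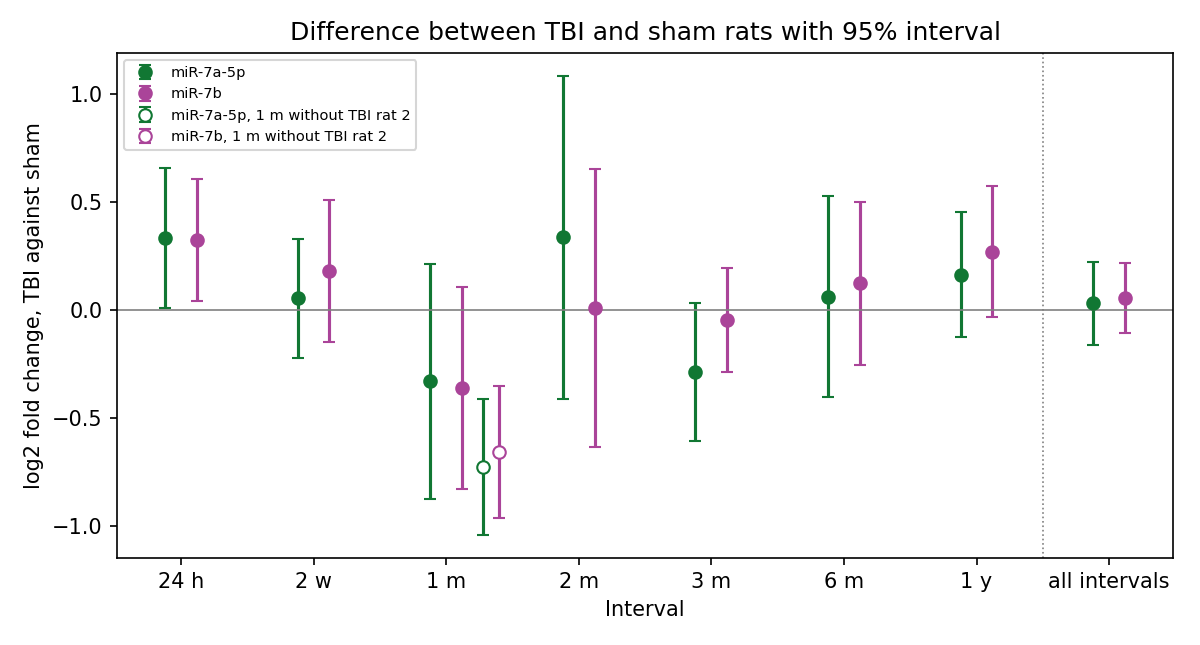
Log2 fold change of TBI against sham with its 95% interval from edgeR at each interval and over all intervals for miR-7a-5p and miR-7b. Filled symbols show all libraries. Their intervals at 24 h lie just above 0 for both members before adjustment, and all others include 0. Open symbols at 1 m show the fit without TBI rat 2, singled out after the values were seen. Their intervals lie below 0 (−1.042 to −0.415 for miR-7a-5p and −0.965 to −0.354 for miR-7b).

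Across the 7 intervals, no test of either member passed the adjusted threshold in edgeR with all libraries, and an unadjusted p under 0.05 was reached at 24 h alone, by both members. The Wald test of DESeq2 gave no call for them at any interval either. Adjusted over the 14 exact permutation tests, p ran from 0.467 to 0.971. As the smallest possible unadjusted p of this test is 0.0286, 1 test alone could not have passed after that adjustment. With the injury effect taken as common to all intervals (28 against 28 rats), the fold change was 1.02 for miR-7a-5p (95% interval 0.893 to 1.17, adjusted p 0.948) and 1.04 for miR-7b (0.93 to 1.16, adjusted p 0.88). In this fit 4.51% of 244 miRNAs passed. The injury effect was not shown to differ between intervals for either member (6 interaction terms, adjusted p 0.543 for both), whereas 2.87% of miRNAs passed that test.

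The sham rats alone showed how the family varied without injury. Both members differed between the 7 sham groups (adjusted p 0.0177 for miR-7a-5p and 0.0178 for miR-7b, edgeR over 28 libraries), as did 27.1% of the 240 miRNAs tested. The fitted level of miR-7a-5p was 0.43 and 0.44 above that of 24 h on the log2 scale at 2 w and 1 m and 0.31 below it at 2 m. That of miR-7b was 0.21 and 0.25 above at 2 w and 1 m and 0.42 below at 2 m. Without the sham rats of 2 m, chosen after the values were seen, miR-7a-5p did not pass (adjusted p 0.131), miR-7b did (adjusted p 0.0422), and 5.17% of 232 miRNAs passed. Between the ends of the year, 24 h and 1 y, neither member passed (log2 change 0.20, 95% interval −0.15 to 0.56, for miR-7a-5p and −0.19, −0.53 to 0.14, for miR-7b, adjusted p 0.509 for both), and 1.67% of miRNAs did.

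The low sham group of 2 m also stood apart in marker miRNAs. Its vessel wall miRNAs summed to 1397 to 1938 CPM, the highest of the sham groups by median, and its choroid plexus miRNAs to 1168 to 1864 CPM, the lowest by median. Neuron-enriched miRNAs summed to 172000 to 237700 CPM there. These traits were not particular to the sham rats of 2 m. Among the TBI groups, that of 2 m also had the highest vessel wall median (1539 CPM) and the lowest choroid plexus median (1664 CPM). Its neuron median (201200 CPM) and its mean miR-7b (3850.4 CPM) were the lowest of the TBI groups too, whereas miR-7a-5p was lowest in TBI rats at 3 m. The part of these differences in the miR-7 values was not tested. The sample numbers of the libraries also went with the interval, and what they mark is not given in the sources used here. Interval, age and any library set that went with the interval cannot be told apart. In the TBI rats over time, 25% of miRNAs passed, and neither member did, with adjusted p of 0.488 for miR-7a-5p and 0.0619 for miR-7b. The call on miR-7b depended on single libraries and on the method. It passed without TBI rat 2 at 1 m (adjusted p 0.0171) and without TBI rat 2 at 2 m (0.0216). With all libraries it passed with total count scaling (0.0171), with no filter on low counts (0.0433) and with the likelihood ratio test of DESeq2 (0.026).

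Within a library, the ratio of the members does not depend on scaling to other miRNAs. In sham rats the group means ran from 12.1 ± 1.8 (SD, n = 4) reads of miR-7b per 100 reads of miR-7a-5p at 24 h to 9.03 ± 1 at 1 y, and in TBI rats from 12 ± 1.4 at 24 h to 9.28 ± 1.8 at 2 m. This is a ratio of reads and not of molecules. Single sham rats at 24 h stood at 11.1, 10.3, 14.2 and 13, and at 1 y at 8.24, 9.41, 10.3 and 8.15, so the ends of the course just met at 10.3.

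**Figure D3:**
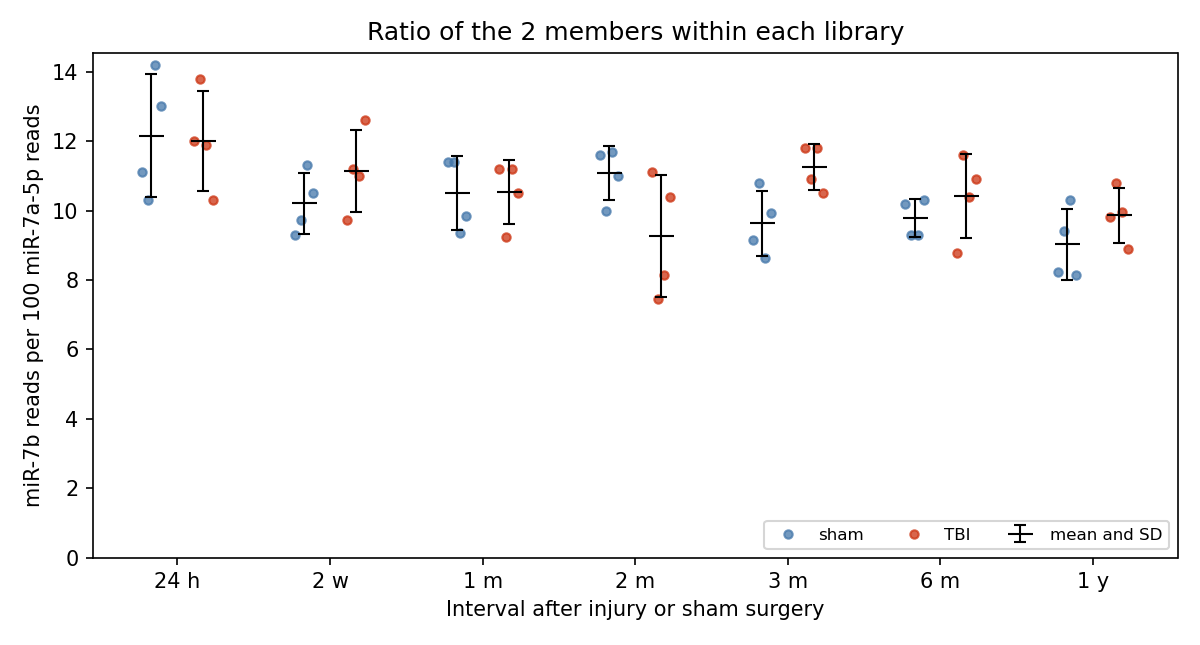
Reads of miR-7b per 100 reads of miR-7a-5p in each rat by interval, sham in blue and TBI in red, with the group mean and SD (4 rats). The sham means lay between 12.1 at 24 h and 9.03 at 1 y, and TBI and sham rats overlapped at all 7 intervals.

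The smallest possible p of the exact permutation test is 0.0286, so 1 interval alone could not pass after adjustment over 7 intervals. No test of the ratio between treatments had an unadjusted p under 0.05. The nearest was 3 m, where TBI rats stood at 11.8, 10.9, 11.8 and 10.5 and sham rats at 9.14, 10.8, 8.64 and 9.94 reads per 100. There 3 of the 4 TBI rats exceeded every sham rat, the log2 difference was 0.23, and p was 0.0571 (two-sided exact permutation test, adjusted p 0.4 over 7 intervals). At 2 m the difference was opposite, −0.27 on the log2 scale (exact p 0.171, adjusted p 0.5). At the other intervals it lay between −0.01 and 0.13.

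The ratio differed between the sham intervals by a permutation test chosen after the data were seen (100000 permutations, p = 0.00951, adjusted p 0.019 over both treatments). After adjustment the call rested on the ends of the course and on single rats at 24 h. Without 24 h the adjusted p was 0.068, and without 1 y it was also 0.068. Both are the p of the test in TBI rats, carried over by the adjustment. Without sham rat 3 at 24 h the adjusted p was 0.0676 and without sham rat 4 at 24 h it was 0.0614. Before adjustment, the permutation p was 0.0638 without 24 h and under 0.05 without 1 y. With any single sham rat left out, it was at most 0.0338. In the TBI rats the permutation p was 0.068, and it was 0.0166 without TBI rat 1 at 2 m. The p without TBI rat 4 at 24 h was 0.0346, without TBI rat 1 at 2 w 0.0457 and without TBI rat 4 at 2 m 0.0441.

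The members varied together from rat to rat. Over the 55 libraries of at least 1000000 counts, the Pearson r of their log2 CPM deviations from the group means was 0.883, and r of the levels themselves was 0.854. The group means here included the library of 69628 counts. With means over the 55 libraries alone, tried after the values were seen, r was 0.872. The deviations had the same sign in 42 of the 55 rats and opposite signs in 13. The points share a library and its scaling, and the near-identical sequences may share reads, so this r is a description. TBI rat 2 at 1 m and TBI rat 2 at 2 m deviated upward in both members.

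**Figure D4:**
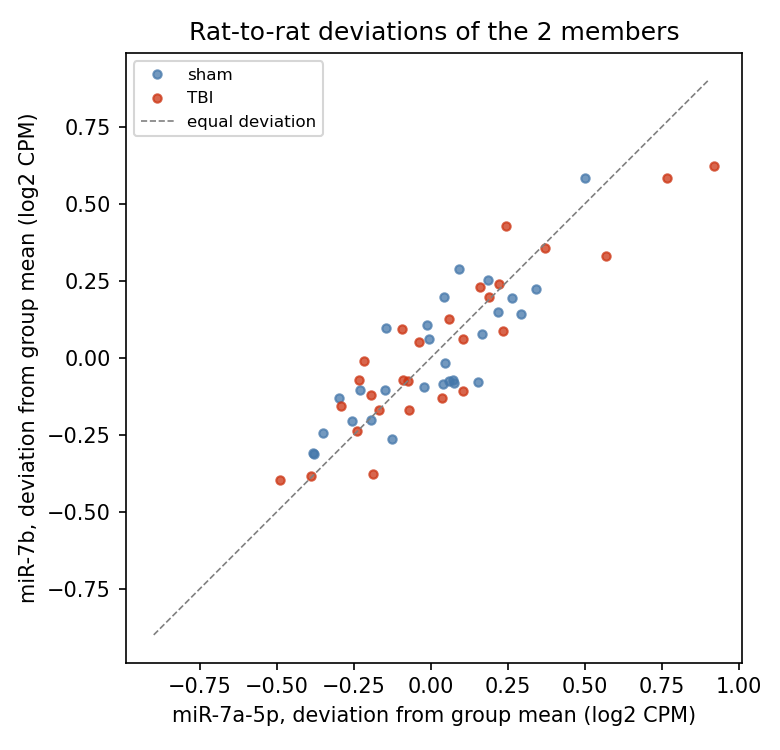
Deviation of miR-7b against that of miR-7a-5p from the group mean (log2 CPM) in 55 libraries of at least 1000000 counts, sham in blue and TBI in red, with a dashed line of equal deviation. The deviations of the members had the same sign in 42 of 55 rats, with a Pearson r of 0.883.

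Other miRNAs followed the members less closely. After miR-7b, the miRNAs whose deviations were most like those of miR-7a-5p over the 55 libraries were miR-218a-5p, a neuronal miRNA (r = 0.659), miR-541-5p (0.607), and miR-299a-3p with miR-299b-3p (0.59 for both). The last pair holds the same counts in every library and so is 1 observation. For miR-7b they were miR-455-5p (0.598), miR-218a-5p (0.508), miR-329-5p (0.483) and miR-532-5p (0.466). At the other end was miR-150-5p, a lymphocyte miRNA, with r of −0.63 for miR-7a-5p and −0.528 for miR-7b. It was followed by miR-16-5p (−0.506) and miR-15b-5p (−0.501) for miR-7a-5p, and by miR-664-3p (−0.441) and miR-543-5p (−0.427) for miR-7b. With group means over the 55 libraries alone, miR-218a-5p stayed next after miR-7b for miR-7a-5p (r = 0.645), miR-455-5p stayed next after miR-7a-5p for miR-7b (0.625), and miR-150-5p stayed lowest for both (−0.649 and −0.537). Others changed places, with miR-541-5p at rank 6, miR-532-5p at rank 7 and miR-543-5p at rank 9 from the lowest. These r come from 243 miRNAs compared and carry no test.

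The other parts of the miR-7 pathway were thinly covered. Of 5 listed miRNAs of the circuit, which include miR-671 and the other arms of the miR-7a hairpins, 0 could be matched to a counted miRNA. Cdr1as, Cyrano and the target mRNAs were not analysed here.

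The 5p arms of miRNAs that accompany miR-7 in neuroendocrine tissue were near 0. Of 6 listed, 5 were matched and 0 passed the filter on low counts. miR-375-5p and miR-200c-5p had 0 reads in all 56 libraries, and the highest count of miR-200a-5p was 69. The summed level of the list did not exceed 14.47 CPM in any library. The marker lists of other cells were also read from 5p arms, except for miR-182, which is named without an arm. The 3p arms of the listed miRNAs were not analysed here, so these levels do not speak for them. Among the 8 neuron-enriched miRNAs, 0 passed between treatments at any interval or in the common effect, and 3 passed over time in sham rats (miR-9a-5p, miR-124-5p and miR-212-5p), where 27.1% of all miRNAs did. Over time in TBI rats 2 of 8 passed (miR-129-5p and miR-138-5p), where 25% of all miRNAs did. Both counts lie near the share over all miRNAs.

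The marker lists of other cells gave the following counts in the common injury effect. Of 3 leukocyte and microglia miRNAs, 2 were higher after TBI, namely miR-142-5p and miR-223-5p, against 4.51% of all miRNAs called in either direction. miR-223-5p had a median of 3 reads and 0 reads in 5 libraries, and it passed the filter on low counts in the TBI rats but not in the sham rats or at any single interval, so it entered through the group where it was high. None of the 3 choroid plexus, 3 vessel wall, 2 red blood cell, 2 oligodendrocyte and 3 sensory cluster miRNAs passed. At the single intervals none of those tested passed the adjusted threshold in edgeR, where 0% to 1.72% of all miRNAs did.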

How the data were processed

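Small RNA of 56 rat hippocampi was measured, 4 rats in each of 14 groups. The deposited table holds raw read counts per mature miRNA, without normalization. The authors sequenced NEBNext small RNA libraries (NextSeq550) and used miRDeep2 and miRBase to trim and count reads. Per the submitters' processing notes, bcl2fastq 2.20.0.422 was also used. How reads that match several miRNAs were divided is not given in the sources used here. Groups came from the labels, and 0 columns were left out. Of 367 miRNAs, 34 had no count.

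Each interval was tested on its own 8 libraries, and the common effect, the interaction and the change over time on 56 or 28 libraries, with edgeR 4.0.16 in R 4.3.3 (filterByExpr, TMM, quasi-likelihood test, Benjamini-Hochberg adjustment over all miRNAs tested, threshold 0.05). SE is the log2 fold change over the square root of F. log2 CPM used a prior count of 2, and log2 ratios of the members a pseudocount of 0.5. Exact permutation tests took all 35 splits of 8 rats and were two-sided. Alternatives were DESeq2 1.42.0, other scaling and filters, and leaving out rats or intervals. The steps were tested on simulated data. Figures used matplotlib 3.10.9 and pandas 2.3.3 in Python 3.11.15.

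The miR-7 members and the miRNA lists were chosen with earlier results of these data known. The text names both members, each list by counts with up to 4 examples, and for each member the 5 miRNAs with the highest and the 3 with the lowest r of deviations. 1 list of miRNAs is not reported here.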

Additional observations from a re-analysis of the deposited data

Results flagged for a closer look

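In 2 of the 42 groups of 4 rats examined, for the levels of both members and for their ratio, 1 rat lay far from the other 3 by Dixon's criterion (gap to the nearest rat over the range of the group). Chance gives about 1 in 20 groups, here 2.1. Both cases were levels of miR-7a-5p at 2 w. Sham rat 4 stood at 51550 CPM against 58840 to 59540 in the other 3 sham rats (gap over range 0.912). TBI rat 3 stood at 74890 CPM against 50890 to 54410 in the other 3 TBI rats (gap over range 0.854), and without it the log2 fold change of miR-7a-5p at 2 w was −0.10 in place of 0.05.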

How the results depend on the processing

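Of 819 alternatives computed for 33 tested results, 779 kept the direction and the side of the threshold, 22 turned the direction, 5 lost a call and 13 gained one. The cause was not tested. With libraries scaled by total count alone, the log2 fold change of miR-7b at 2 m was −0.138. The common effect on miR-7a-5p was −0.032 without 24 h and −0.021 without 2 m. Over time in sham rats, the adjusted p of miR-7a-5p was 0.131 without 2 m. Over time in TBI rats, the adjusted p of miR-7b was 0.0171 with total count scaling, 0.0433 with no filter, 0.026 with the likelihood ratio test of DESeq2 and 0.043 without 1 m. The permutation p of the ratio over the sham intervals was 0.0638 without 24 h and 0.0367 without 1 y (adjusted p 0.068 for both), and over the TBI intervals 0.0464 without 6 m.

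Leaving out 1 rat at a time, the log2 fold change of miR-7a-5p ran from −0.097 to 0.109 at 2 w, from −0.728 to −0.176 at 1 m, from 0.009 to 0.588 at 2 m, from −0.195 to 0.202 at 6 m and from −0.02 to 0.056 in the common effect. That of miR-7b ran from −0.659 to −0.234 at 1 m, from −0.171 to 0.262 at 2 m and from −0.022 to 0.256 at 6 m. The adjusted p of miR-7b over time in TBI rats ran from 0.0171 to 0.127. The log2 difference of the ratio ran from −0.091 to 0.067 at 24 h and from −0.05 to 0.064 at 1 m, and its permutation p from 0.0023 to 0.0338 over the sham intervals and from 0.0166 to 0.164 over the TBI intervals.

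At the intervals before 1 y, libraries of the same group share sample numbers, and what the numbers mark is not given in the sources used here. At 1 y sham and TBI libraries share them. The correlation of deviations within a number was 0.114, 0.028, 0.412 and 0.104, so the numbers were not taken to pair rats. With the number as a replicate block, the log2 fold change was 0.143 for miR-7a-5p (adjusted p 0.625) and 0.272 for miR-7b (0.59), and no call changed. With 4 rats a group, the log2 95% intervals of miR-7a-5p spanned −0.413 to 1.085 at 2 m, where 1 library held 69628 counts, and 0.007 to 0.657 at 24 h.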
